A study of Mus musculus with 10 samples.

Results

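The genes described here are *Jcad* and 9 genes of the Hippo-YAP pathway, *Yap1*, *Wwtr1*, *Tead1*, *Lats1*, *Lats2*, *Ajuba*, *Amotl2*, *Ankrd1* and *Nuak2*. They are 10 of the 22180 genes measured in the livers of 10 mice with 1 Affymetrix Mouse Gene 2.0 array each, a microarray that reads each gene through a set of probes. Of the mice, 6 were *Vps33b* fl/fl-AlfpCre (the knockout group, with males numbered 1 to 3 and females 4 to 6) and 4 were Cre-negative *Vps33b* fl/fl littermates (the control group, with males numbered 1 and 2, and females 3 and 4). The controls are labelled wild type, but both groups carry the floxed *Vps33b* alleles, and AlfpCre deletes the gene in hepatocytes and cholangiocytes while other liver cells keep it. All mice ate chow with 0.5% cholic acid, a primary bile acid, for 2 weeks from 10 weeks of age by the labels. The study's methods for cholic acid feeding in general give an earlier start and a longer feeding. For the array mice the study gives a range of ages at sacrifice, which the times in the labels fall within, and no feeding time. The genes were picked by name, as YAP and TAZ, the regulators of the LATS kinases and YAP targets, each through the probe set that carries its symbol alone, or the brighter one where there were several. They were picked with the knockout against control values in view, so those values are given below as a description. Where the 10 genes are counted against a threshold, the count is not a test of them.

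The Hippo pathway is a chain of kinases that restrains growth of the liver and other organs. Its last kinases, LATS1 and LATS2, phosphorylate the co-activators YAP (gene *Yap1*) and TAZ (gene *Wwtr1*), which are then held in the cytoplasm or degraded. When LATS activity is low, YAP and TAZ enter the nucleus and bind the TEAD factors, which switch on targets such as *Ankrd1* and *Ccn2*. Junctions and cell polarity feed into the chain, and in the liver YAP is high in bile duct cells and low in resting hepatocytes. JCAD is a protein of endothelial cell-cell junctions that has been reported to bind LATS2 in liver cells.

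TEAD factors recognise a core of 6 bases, GGAATG, or CATTCC when read on the opposite strand. The 250 bases before the start of a gene, from the RefSeq promoter table (build GRCm38.p6), hold at least 1 such hexamer in 14.4% of the 27025 genes listed and 2 or more in 1.18%. Windows of 7 of the 10 genes were searched, and 5 of these hold the hexamer, with 2 copies each in *Ankrd1* and *Ajuba*. *Wwtr1*, *Yap1* and *Amotl2* hold 1 copy each, and none was found in this window for *Lats1* and *Lats2*. A match describes the letters and shows no binding. The 3 windows of *Ankrd1*, *Ajuba* and *Wwtr1* are shown because these genes had higher mean values in knockout livers, and 30 bases around the hexamer of *Yap1* and *Amotl2* because these carry it with little difference between the groups. All run 5′ to 3′ along the gene, with the hexamers in capitals, and the first 3 end at the base before the start. *Ankrd1* is at chr19:36119845-36120094 (minus strand), *Ajuba* at chr14:54577662-54577911 (minus strand) and *Wwtr1* at chr3:57575911-57576160 (minus strand). The shorter stretches are chr9:8004720-8004749 (minus strand) for *Yap1* and chr9:102717727-102717756 (plus strand) for *Amotl2*.
Ankrd1: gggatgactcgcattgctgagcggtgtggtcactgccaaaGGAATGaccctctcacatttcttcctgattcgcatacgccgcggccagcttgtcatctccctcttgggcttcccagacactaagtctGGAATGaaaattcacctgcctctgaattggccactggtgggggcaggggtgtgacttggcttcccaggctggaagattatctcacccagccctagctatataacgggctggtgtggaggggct
Ajuba: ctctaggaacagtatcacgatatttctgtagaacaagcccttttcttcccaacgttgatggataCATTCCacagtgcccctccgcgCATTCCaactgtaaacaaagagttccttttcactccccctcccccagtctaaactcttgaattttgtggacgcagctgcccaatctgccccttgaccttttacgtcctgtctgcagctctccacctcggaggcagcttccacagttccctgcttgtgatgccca
Wwtr1: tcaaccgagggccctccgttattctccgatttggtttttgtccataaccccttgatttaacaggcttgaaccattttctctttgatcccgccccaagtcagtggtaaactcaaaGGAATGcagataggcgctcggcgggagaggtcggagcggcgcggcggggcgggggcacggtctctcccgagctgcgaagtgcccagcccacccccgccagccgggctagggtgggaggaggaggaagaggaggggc
Yap1: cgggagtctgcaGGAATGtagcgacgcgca
Amotl2: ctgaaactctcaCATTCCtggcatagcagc

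Values are log2 expression from RMA, the authors' normalisation, so a difference of 1 is a doubling, and levels of different genes cannot be set against each other. As a gauge of background, the 1105 olfactory receptor genes, which liver does not use, had a 95th percentile of 4.68. The 3 Y-linked genes measured read 3.38 to 4.51 in female livers, which lack them, and 6.61 to 8.75 in male livers. Each of the 10 genes averaged above that percentile. *Vps33b* read 8.92 to 9.39 in knockout and 9.12 to 9.15 in control livers (log2 fold change 0.08, standard error 0.09, adjusted p = 0.739 from limma). Which exons its probe set reads is not given in the sources used here, so this does not check the labels. Liver RNA is a mixture, so a change in the number of cells of a type and in the RNA per cell cannot be told apart.

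*Jcad* (probe set 17348138) lies at chr18:4590792-4682869 in the RefSeq table (GRCm38.p6), and its values in the groups did not overlap. In knockout mice 1 to 6 its log2 expression was 8.25, 8.46, 8.20, 8.33, 8.27 and 8.13, against 6.95, 6.98, 7.46 and 7.29 in control mice 1 to 4. Every knockout value lay above every control value, with a gap between the groups wider than the range within either. The means were 8.27 ± 0.11 (SD, n = 6) in knockout and 7.17 ± 0.25 (SD, n = 4) in control livers, a log2 fold change of 1.10 (standard error 0.11), or 2.15-fold. It ranked 92 of 22180 genes by log2 fold change, counted from the highest. With each mouse left out in turn and under the other alternatives the log2 fold change ran from 1.04 to 1.27.

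Of the other regulators of LATS, *Ajuba* was higher on average and *Amotl2* was not. *Ajuba*, a LIM protein of junctions that holds back LATS, read 7.69, 8.56, 8.25, 7.93, 8.02 and 7.30 in knockout mice 1 to 6, against 7.46, 7.89, 7.20 and 7.13 in control mice 1 to 4. Knockout mice 1 and 6 lay within the range of the controls, and the spread within the knockout group (SD 0.44, n = 6) was nearly as wide as the log2 fold change of 0.54 (standard error 0.18). *Amotl2*, an angiomotin that binds YAP and activates LATS and is itself a YAP target, read 6.49, 6.38, 6.52, 6.42, 6.49 and 6.21 in knockout and 6.38, 6.50, 6.48 and 6.53 in control mice. These ranges overlap almost fully, and the log2 fold change was -0.05 (standard error 0.08).

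The kinases themselves differed little. *Lats1* ranged from 8.66 to 8.95 in knockout livers, with a median between 8.76 and 8.79, against 9.02, 8.83, 8.74 and 9.0 in control mice 1 to 4, a log2 fold change of -0.11 (standard error 0.09). *Lats2* ranged from 6.36 to 6.49 in knockout livers and read 6.57, 6.39, 6.29 and 6.48 in control mice, a log2 fold change of -0.01 (standard error 0.07). For both kinases most knockout values lay inside the control range.

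Of the co-activators, TAZ RNA had the larger log2 fold change. *Yap1* (probe set 17523883) read 9.40, 9.35, 9.50, 9.50, 9.44 and 9.34 in knockout and 9.43, 9.29, 9.39 and 9.31 in control mice. The log2 fold change came to 0.07 with a standard error of 0.07. Its values were among the tightest of the 10 genes, with an SD of 0.07 in either group, and overlapped. A second *Yap1* probe set read 3.90 to 4.53 in knockout and 3.98 to 4.05 in control livers, below the 95th percentile of the olfactory receptor genes. *Wwtr1*, which encodes TAZ, read 8.01, 8.11, 8.33, 8.35, 8.09 and 8.21 in knockout mice 1 to 6, against 7.99, 7.77, 7.64 and 7.84 in control mice 1 to 4. Every knockout value was above every control value, though knockout 1 exceeded control 1 only narrowly. The means were 8.19 ± 0.14 (SD, n = 6) in knockout and 7.81 ± 0.15 (SD, n = 4) in control livers, a log2 fold change of 0.37 (standard error 0.10), or 1.30-fold.

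*Tead1*, a DNA-binding partner of YAP and TAZ, was split by sex as well as by genotype. Male knockout mice 1 to 3 read 7.59, 7.60 and 7.44, against 7.06 and 6.98 in male control mice 1 and 2. Female knockout mice 4 to 6 read 7.96, 7.96 and 7.97, against 7.65 and 7.66 in female control mice 3 and 4. The knockout livers were above the controls of their own sex without overlap, but the knockout males lay below the control females, so that over all mice the groups overlapped. With sex as a term the log2 fold change was 0.41 (standard error 0.07), or 1.33-fold.

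The YAP targets follow. *Ankrd1*, a nuclear ankyrin repeat protein widely used as a readout of YAP and abundant in heart muscle, read 7.20, 6.23, 5.87, 6.78, 6.93 and 6.70 in knockout mice 1 to 6, against 5.91, 6.07, 6.10 and 5.42 in control mice 1 to 4. Of the knockout livers 5 of 6 exceeded all controls, and knockout 3 fell within the control range. The log2 fold change was 0.74 (standard error 0.24), or 1.67-fold, and ran from 0.54 to 0.94 over the alternatives. *Nuak2*, a kinase induced by YAP, read 6.63, 6.51, 7.0, 6.47, 6.71 and 6.55 in knockout and 6.28, 6.92, 6.94 and 6.85 in control mice, a log2 fold change of -0.10 (standard error 0.14). Control 1 was the lowest of all 10 mice for *Nuak2* and the other controls were near the top, so the groups overlapped.

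**Figure D1:**
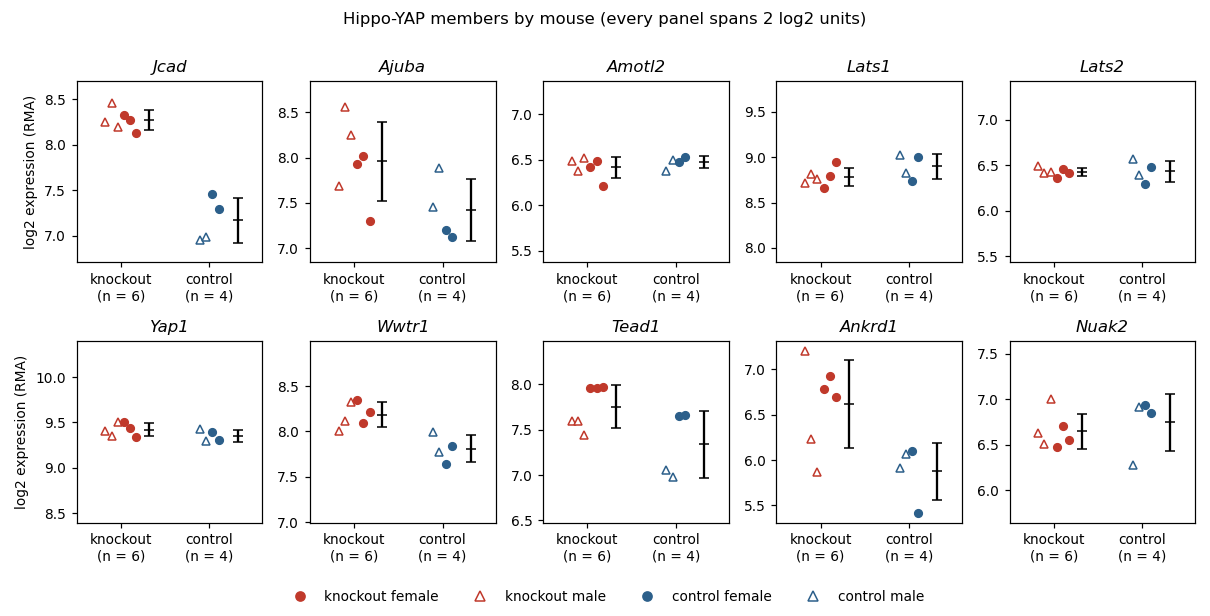
Log2 expression (vertical axis, RMA values, every panel spanning the same width) of the 10 genes in each knockout liver (red) and control liver (blue), with filled circles for females and open triangles for males and bars for the mean and SD of each group. The knockout values of *Jcad*, 8.13 to 8.46, and of *Wwtr1*, 8.01 to 8.35, all lie above the controls, whereas *Yap1*, *Lats1*, *Lats2* and *Amotl2* overlap between the groups.

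Across the 10 genes, 6 had a positive and 4 a negative log2 fold change, and the median over all 22180 genes was -0.01. In the limma fit with genotype and sex as terms (Benjamini-Hochberg adjustment over all genes, threshold 0.05), 2 of the 10 were past the threshold as higher in knockout livers, *Jcad* and *Tead1*, where 3.11% of all genes were, and 0 of 10 as lower, where 1.14% of all genes were (4.25% in either direction). The number ran from 1 to 3 over the alternatives. It was 1 without control 2, with no sex term and with replicate number as a block, when *Tead1* was not past the threshold. It was 3 without knockout 1, knockout 3 or control 1, with dim genes left out, with trend and robust moderation and with array weights, through *Ankrd1* without knockout 3 and through *Wwtr1* in the others. In 2 of the 10 genes every knockout mouse was above every control mouse (3.39% of all genes) and in 0 below (1.93%). In 3 of 10 every knockout mouse was above every control of its sex (5.20% of all genes), and in 0 below (3.72%). Since the genes were chosen with this contrast known, neither these counts nor the genes named with them are a test, and nothing is read from them.

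Sex was not used to choose the genes, and 1 of the 10, *Tead1*, differed between females and males in limma (0.491% of all genes did, 0.284% with higher values in females and 0.207% with lower ones). *Tead1* averaged 7.84 in female and 7.34 in male livers, a log2 difference of 0.51 (standard error 0.07, adjusted p = 0.00968), and females exceeded males of their own genotype without overlap in both genotypes. This call was kept with any 1 mouse left out. *Ajuba* averaged 7.51 in female and 7.97 in male livers, with a log2 difference of -0.46 (95% interval -0.84 to -0.07) that did not pass over all genes (adjusted p = 0.352). For the other 8 genes the adjusted p was 0.67 or above.

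The genotype difference was also set between the sexes, with 3 knockout and 2 control mice in each. *Jcad* was higher in knockout livers by 0.86 in females (standard error 0.12) and by 1.34 in males (standard error 0.12). The knockout males and females read alike, at 8.20 to 8.46 in males and 8.13 to 8.33 in females, whereas control males, at 6.95 and 6.98, were below control females, at 7.46 and 7.29. The difference between these effects, females minus males, was -0.48 (95% interval -0.85 to -0.11), with an unadjusted p of 0.0159 in limma and an adjusted p of 0.77. *Ankrd1* was higher by 1.04 in females (standard error 0.32) and by 0.44 in males (standard error 0.32), a difference of 0.60 (95% interval -0.40 to 1.61, adjusted p = 0.9). Of the 10 genes, 0 passed this test in limma over all genes, 1 at an unadjusted p under 0.05, and 1 of the 22180 genes passed (0.00451%).

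**Figure D2:**
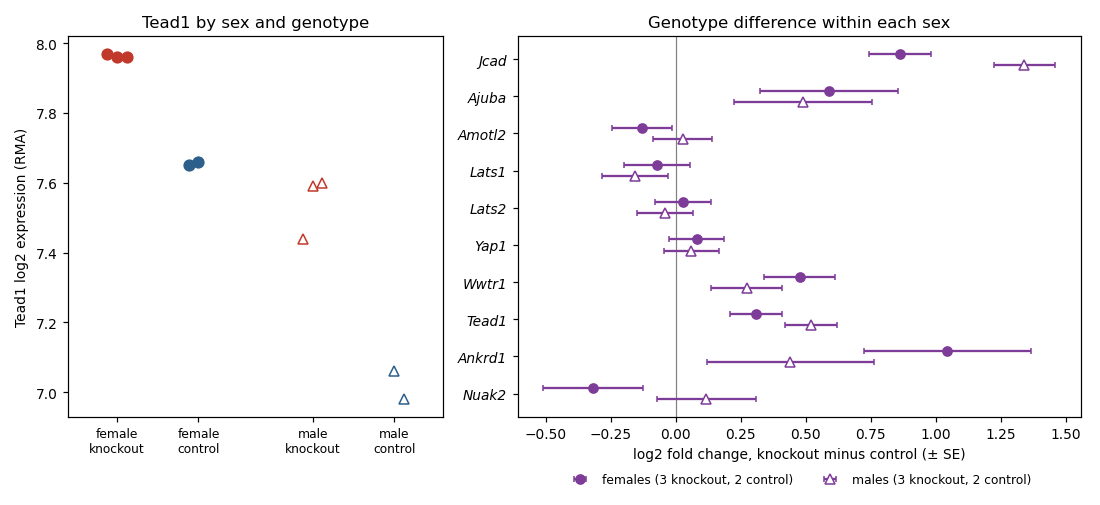
Left, *Tead1* log2 expression (vertical axis) in each female and male liver, knockout in red and control in blue. Right, the log2 fold change of knockout minus control (horizontal axis, bars ± standard error) within females (filled circles) and within males (open triangles). Female livers read higher than male livers of the same genotype for *Tead1*, and the effect on *Jcad* was 0.86 in females and 1.34 in males.

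Other genes of the pathway were taken from lists by function, and these were tested. The lists too were chosen with earlier results of these data known, so the counts below are no independent test. Over 68 measured genes that are not among the 10, 11 were higher in knockout liver, 2 were lower and 55 did not pass in limma, where 3.11% of all genes were higher and 1.14% lower. Of 17 kinases and adaptors above YAP, 0 were higher and 1 was lower (median log2 fold change -0.04, 5 at an unadjusted p under 0.05). No share over all genes is given for the unadjusted counts, here or in the lists below. The lower gene was *Nf2*, the tumour suppressor Merlin that brings LATS to the membrane, which read 6.60, 6.44, 6.34, 6.47, 6.71 and 6.49 in knockout and 6.63, 6.90, 7.05 and 6.90 in control mice. Knockout livers were below the controls except that knockout 5 exceeded control 1, and *Nf2* fell by 0.36 (standard error 0.09, adjusted p = 0.048). That call rests close to the threshold, and it was lost without 8 of the 10 mice, all but knockout 1 and control 1 (adjusted p 0.0552 to 0.17). *Map4k4*, a kinase that can activate LATS, had a log2 fold change of 0.45 (adjusted p = 0.0941) and passed without control 1 at 0.0333.

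Of 17 regulators at junctions and in the STRIPAK complex, 3 were higher, 0 were lower and 14 did not pass (median 0.01), where 3.11% of all genes were higher. *Amot*, the angiomotin that gives *Amotl2* its family name, read 7.19, 7.18, 7.11, 7.21, 7.41 and 6.91 in knockout and 6.81, 6.60, 6.30 and 6.42 in control mice. Every knockout value was above every control value. *Amot* rose by 0.64 (standard error 0.11, adjusted p = 0.0109), and the call was kept with any 1 mouse left out. *Ctnna1*, alpha-catenin of adherens junctions, rose by 0.39 (standard error 0.08, adjusted p = 0.0239), and *Ptpn14*, a phosphatase that binds YAP and is also a target, by 0.67 (standard error 0.14, adjusted p = 0.0244). The call of *Ctnna1* was lost without 6 of the mice (knockout 2, 4 and 5 and control 2, 3 and 4, adjusted p 0.0511 to 0.0963) and that of *Ptpn14* without 4 (knockout 4 and control 2, 3 and 4, adjusted p 0.0551 to 0.0825).

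Downstream of LATS, none of 11 genes for 14-3-3 proteins, which hold phosphorylated YAP in the cytoplasm, and for YAP turnover passed in limma (median 0.03, 3 at an unadjusted p under 0.05). The mean log2 value of this list was 9.25 to 9.36 in knockout and 9.17 to 9.22 in control livers. The groups did not overlap, but only narrowly, with knockout 1 at 9.252 and control 3 at 9.225, and the list mean was not tested. The smallest adjusted p values were those of *Csnk1e*, a casein kinase (log2 fold change 0.35, adjusted p = 0.133), and the 14-3-3 gene *Ywhaz* (0.23, adjusted p = 0.15). *Csnk1e* passed without knockout 3 at 0.0312. Of 7 other TEAD and VGLL factors 0 passed in limma (median 0.10, 1 at an unadjusted p under 0.05), with *Tead4* at 0.23 (adjusted p = 0.144) and *Vgll3* at 0.38 (adjusted p = 0.348). *Vgll1* and *Vgll2* were not above background.

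A signature of YAP and TAZ targets described for human tumours has 17 measured genes besides the 10, of which *Ptpn14* is also one of the junction regulators above. All of the 10 genes first described are left out of its counts. They include the YAP targets *Ankrd1* (log2 fold change 0.74), *Amotl2* (-0.05) and *Nuak2* (-0.10), and the kinase gene *Lats2* (-0.01). Of the 17, 9 were higher in knockout liver, 1 was lower and 7 did not pass, where 3.11% of all genes were higher. *Fjx1* and *Foxf2*, among the 7, were not above background. The median log2 fold change of the 17 was 0.32. In 7 of the 17 every knockout mouse was above every control mouse, where 3.39% of all genes were. *Ccn2*, connective tissue growth factor and with *Ankrd1* the most used YAP readout, read 7.77, 7.63, 7.51, 7.95, 7.73 and 7.85 in knockout and 7.04, 7.0, 6.42 and 7.10 in control mice. Every knockout value was above every control value, with control 3 the lowest by far, and *Ccn2* rose by 0.85 (standard error 0.14, adjusted p = 0.00794). A second *Ccn2* probe set, near background, read 4.69 to 4.97 in knockout and 4.21 to 4.86 in control livers and did not pass on its own (adjusted p = 0.171).

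*Axl*, a receptor tyrosine kinase, read 8.94, 9.18, 8.96, 9.29, 9.26 and 9.23 in knockout and 8.72, 8.22, 8.65 and 8.35 in control mice and rose by 0.66 (standard error 0.11, adjusted p = 0.00904). *Myof*, the membrane repair protein myoferlin, read 6.95, 6.62, 6.41, 7.14, 6.95 and 7.30 in knockout and 6.20, 5.64, 6.40 and 5.92 in control mice and rose by 0.86 (standard error 0.15, adjusted p = 0.0105), though knockout 3 was barely above control 3. The calls of *Ccn2* and *Axl* were kept with any 1 mouse left out, and that of *Myof* was lost without control 2 at 0.0529. *Ccdc80*, a matrix protein, rose by 0.63 (standard error 0.12, adjusted p = 0.0162), but its second probe set overlapped between the groups and did not pass on its own (adjusted p = 0.498), and the call was lost without control 2 at 0.0655 and control 4 at 0.0706. The other higher genes were *Ptpn14*, given above, and *Tgfb2*, *Rbms3*, *Arhgef17* and *Crim1*, which are named here after their values were seen, with log2 fold changes of 0.30 to 0.67 and adjusted p of 0.0416 to 0.0452. *Ccn1*, the close relative of *Ccn2*, had a log2 fold change of 0.32 (adjusted p = 0.183), and was also picked after its value was seen.

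*Nt5e*, the ectoenzyme CD73, was the signature gene past the threshold as lower. Male knockout mice 1 to 3 read 6.99, 7.71 and 6.72, against 8.56 and 8.62 in male control mice. Female knockout mice 4 to 6 read 9.34, 9.92 and 8.78, against 10.24 and 9.92 in female control mice. It fell by 1.09 (standard error 0.24, adjusted p = 0.0294) and was higher in females than in males by 1.92 (standard error 0.24, adjusted p = 0.00337). The fall was clear of overlap in males only, and its call was lost without 6 of the mice (knockout 1, 4 and 6 and control 1, 2 and 3, adjusted p 0.0529 to 0.113) and with no sex term at 0.423.

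How many signature genes passed as higher depended on single mice. Against 9 with all mice, 2 passed when control 2 was left out, 3 when control 4 was, 4 when knockout 4 was, and 5 when knockout 2, knockout 6 or control 3 was. Over the whole array 690 genes were higher, against 233 when control 2 was left out, 244 for control 4, 372 for knockout 4, 440 for knockout 2 and 448 for control 3, and 645 for knockout 6. Over the other pathway genes, 11 passed as higher, against 3 when control 2 was left out, 4 for control 4, 5 for knockout 4, 6 for knockout 2 or control 3, and 7 for knockout 5 or knockout 6. Promoter windows of 12 signature genes were searched for the hexamer, and 4 hold it, where 14.4% of all genes listed do. *Gadd45a*, which was not measured on the arrays, is among the 12. The rest of the signature, *Ccn2* included, had no window to search. The log2 fold changes of the 10 genes first described moved by less than the spread between replicates in all 20 alternatives.

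**Figure D3:**
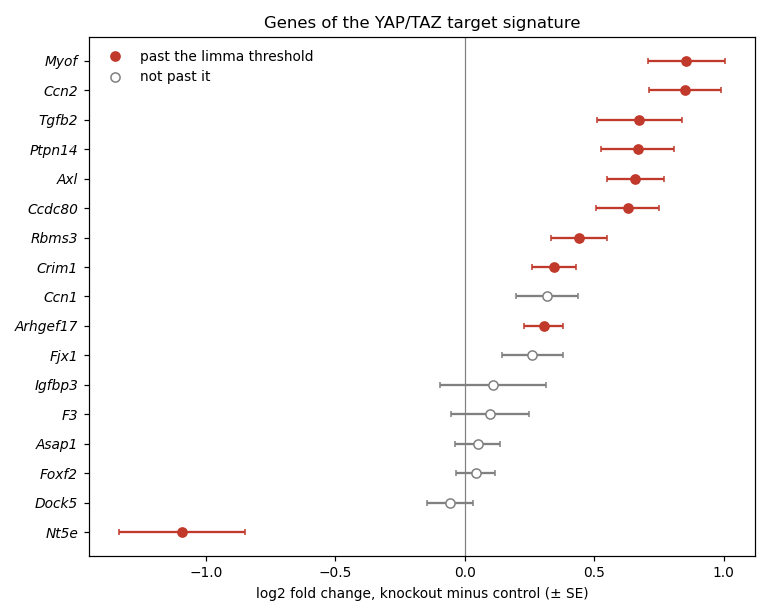
Log2 fold change of knockout minus control livers (horizontal axis, bars ± standard error) for the 17 genes of the target signature, filled where past the limma threshold and open where not. Of these, 9 lie to the right of 0 past the threshold, up to 0.86 for *Myof*, and *Nt5e* alone lies past it to the left, at -1.09.

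Some markers of other liver cells were also higher in knockout livers. For each marker list here, the share over all genes in limma was 3.11% higher and 1.14% lower. Of 8 measured cholangiocyte markers 6 were higher in knockout liver (median log2 fold change 0.70). These include *Epcam* (1.14, adjusted p = 0.000996) and *Bicc1* (1.39, adjusted p = 0.004). The mean log2 value of this list was 6.55 to 6.91 in knockout and 5.89 to 6.11 in control livers, without overlap. The duct markers *Cftr* and *Cldn7* were not above background, and *Cldn7* is 1 of the 6 (0.74, adjusted p = 0.00622 in limma). Of 12 stellate cell and fibroblast markers 3 were higher and 9 did not pass in limma (median 0.38, range -0.14 to 0.91). The smallest adjusted p values were those of the collagen genes *Col3a1* (0.71, adjusted p = 0.0116) and *Col1a1* (0.91, adjusted p = 0.0266). The list averaged 7.72 to 8.25 in knockout and 7.41 to 7.78 in control livers. Of 10 macrophage markers 4 were higher (median 0.58), with the smallest adjusted p for *Lyz2* (0.63, adjusted p = 0.0289) and *Cd5l* (0.78, adjusted p = 0.0369), and the list averaged 9.70 to 10.25 in knockout and 9.06 to 9.62 in control livers, again without overlap. The part of these cells in the values of *Jcad*, *Wwtr1*, *Ankrd1* and the targets was not tested.

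Endothelial cells, in which JCAD is best known, were examined for that reason. Of 12 endothelial markers 1 was higher and 11 did not pass in limma (median 0.10), where 3.11% of all genes were higher. *Cdh5*, the cadherin of endothelial junctions, was at 0.34 (adjusted p = 0.0373) and *Lyve1* at 0.52 (adjusted p = 0.0604). The list averaged 8.53 to 8.73 in knockout and 8.24 to 8.71 in control livers, and these ranges overlap. The part of endothelial cells in the values of *Jcad* was not tested. Control 2 was the lowest mouse for endothelial, stellate cell and macrophage markers. Of 10 hepatocyte markers 0 passed in limma (median -0.08, 1 at an unadjusted p under 0.05), with *Tat* at -0.25 (adjusted p = 0.127) and *Ttr* at -0.10 (adjusted p = 0.499), and their mean was 12.83 to 12.95 in knockout and 12.92 to 13.00 in control livers.

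Muscle was examined because *Ankrd1* is abundant there. Of 12 striated muscle genes 0 passed in limma (median 0.13, 2 at an unadjusted p under 0.05), with *Tnnt2* at -0.22 (adjusted p = 0.265) and *Myl2* at 0.18 (adjusted p = 0.275), and 6 of them were not above background. Their mean was highest in knockout 5, at 5.42, against 4.78 to 4.91 in the other knockout mice and 4.72 to 4.90 in control mice. *Ankrd1* was at 6.93 in knockout 5, second to knockout 1 at 7.20, and the part of muscle in its values was not tested. For this and the following lists, the share over all genes in limma was 3.11% higher and 1.14% lower. Of 6 mesothelial markers 1 was higher, *Gpm6a* (0.68, adjusted p = 0.00259), while *Msln* was at -0.15 (adjusted p = 0.72). Of 8 neutrophil markers 1 was higher, *Csf3r* (0.50, adjusted p = 0.0239), with *Mmp8* at 0.41 (adjusted p = 0.0922), and of 9 lymphocyte markers 0 passed in limma (1 at an unadjusted p under 0.05), with *Cd3d* at -0.19 (adjusted p = 0.255) and *Cd3g* at 0.30 (adjusted p = 0.335). Of 7 proliferation genes, 0 were higher and 1 was lower, *Birc5* (-0.66, adjusted p = 0.0148), which was not above background.

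**Figure D4:**
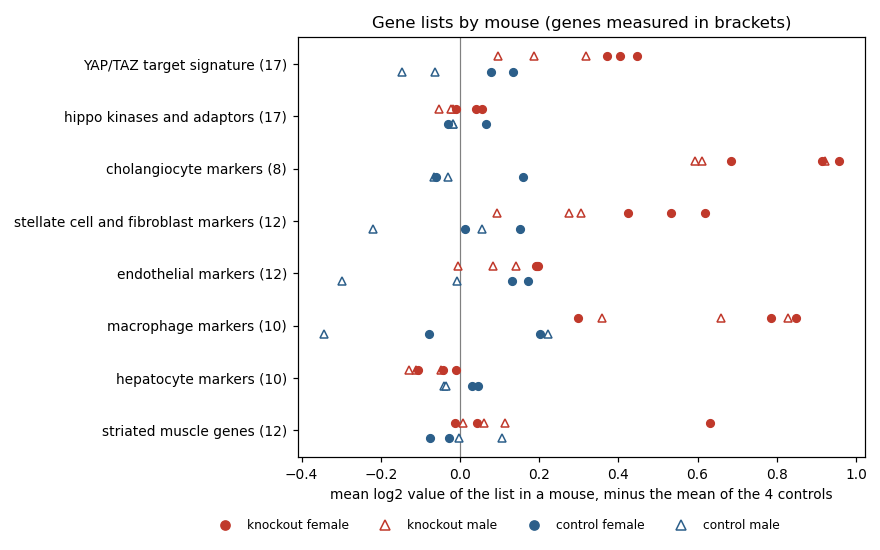
Mean log2 value of each gene list in each mouse, minus the mean of the 4 controls (horizontal axis), with knockout livers in red above control livers in blue, filled circles for females and open triangles for males. Of the lists drawn, the cholangiocyte and macrophage lists separate the groups, the target signature and the endothelial list overlap between them, and the kinases and adaptors lie close to 0 in all mice.

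The genes most like *Jcad* beyond genotype and sex were sought by Pearson's r of the residuals of the limma fit over the 10 mice, among 14214 other genes above background. The highest were *AW554918* (0.958), *Zfp747* (0.951), *Agpat5* (0.924), *Gm9776* (0.923) and *Sri* (0.922). Before genotype and sex were taken out, their r with *Jcad* was 0.219, 0.46, 0.566, -0.603 and 0.917 in the same order. These are the highest of many correlations over few mice and are given as a description with no test. Among the 10 genes themselves the highest residual r was that of *Jcad* with *Tead1*, at 0.738, followed by *Lats1* with *Lats2*, at 0.722, and the lowest was that of *Lats1* with *Amotl2*, at -0.574.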

How the data were processed

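Total RNA from the livers of 10 mice was measured on Affymetrix Mouse Gene 2.0 arrays, 1 per mouse. The authors deposited log2 values, computed by RMA (R package oligo) (background correction, quantile normalisation over arrays, summary of the probes of each probe set), with versions not given in the sources used here. The log2 scale was read from the values. Quantile normalisation gives every array nearly the same distribution, so a shift common to most genes would not be seen. The table has 41345 probe sets, of which 23521 carry 1 gene symbol in the platform annotation, 1820 carry several and were left out, and 16004 are not listed. Where a gene had several probe sets (1082 genes), the brightest on average was used, giving 22180 genes. The number of arrays limits the precision, and no depth applies. Array medians lay between 4.71 and 4.82, and correlations between arrays from 0.982 to 0.991.

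Genotype and sex were the terms of a linear model per gene in limma 3.58.1 under R 4.3.3, using eBayes, and p-values were adjusted by Benjamini-Hochberg across all genes (threshold 0.05). Effects within each sex and their difference came from a fit of 4 groups. Log2 fold changes are knockout minus control, sex differences female minus male. The fit was tested on simulated data with planted changes. The members and the gene lists were chosen with earlier results of these data known, and the target signature is one described for human tumours, written from general knowledge. Named genes are the 10 members, *Vps33b*, for each pathway list up to 6 genes past the threshold (or the 2 with the smallest adjusted p where fewer than 2 passed), the 2 smallest adjusted p of each marker list, and the 5 genes most like *Jcad*. Alternatives were other model terms, probe sets, scalings and moderation, a filter on genes at or below the 95th percentile of olfactory receptor genes, array weights, a block for replicate number and leaving out each mouse. The counts of the target signature and of the members under these alternatives were added after seeing the data. Replicates are separate mice. No slide or scan date was used.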

Additional observations from a re-analysis of the deposited data

Results flagged for a closer look

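Of 48 groups of mice examined over the 10 genes and the named pathway genes, 3 held a mouse far from the others by Dixon's gap test, where chance gives about 1 in 20 groups. *Csnk1e* was at 6.44 in knockout 3, against 6.76 to 6.93 in the other knockout mice. *Nuak2* was at 6.28 in control 1, against 6.85 to 6.94 in the other controls. *Ccn2* was at 6.42 in control 3, against 7.0 to 7.10 in the other controls.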

How the results depend on the processing

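No direction of a called result reversed under any alternative. With no sex term, 165 genes were lower in knockout livers, 7 other pathway genes higher, 0 lower and 5 signature genes higher, against 252, 11, 2 and 9. The other pathway genes that were lower numbered 1 in the fit with 4 groups, 1 with the lowest-mean probe set and 0 with trend and robust moderation, and array weights gave 499 lower genes. Leaving out 1 mouse gave 233 to 825 higher and 47 to 449 lower genes, 3 to 11 higher and 0 to 1 lower pathway genes and 2 to 8 higher signature genes. With replicate number as a block, 208 genes were higher and 49 lower, 4 pathway genes higher and 0 lower and 4 signature genes higher, and 0 of the 10 members differed by sex (*Tead1*, adjusted p = 0.599). The numbers do not pair the mice, since residuals of same-numbered mice correlated at -0.238 to 0.122 and number 3 joins a male with a female. No member passed the test of the genotype effect between sexes under any alternative in which it was run. With 4 controls and 6 knockout mice the precision is limited, and genes near background have compressed differences.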
